A study of Canis lupus familiaris with 9 samples.

Results

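The genes described are 9 components of the phosphoinositide 3-kinase (PI3K) pathway: 4 PI3K subunits (PIK3R1, PIK3R5, PIK3CD and PIK3CG), the lipid phosphatases INPP5D and INPP4B, the kinases AKT1 and MTOR, and the transcription factor FOXO1. They were found by gene symbol among 28008 features. Each of the 9 had 1 row, and all 9 passed the filter on low values. RNA sequencing was done on 9 canine libraries. The 3 controls were sorted CD4+ T cells of healthy, unneutered female hounds aged 1 year. The other 6 libraries came from peripheral T cell lymphomas (PTCL) of the CD4+ type, tumours of mature T cells. Those of Boxers came from a castrated male aged 6, a spayed female aged 8 and a castrated male aged 6 years (replicates 1, 2 and 3). Those of other breeds came from a spayed Cavalier King Charles Spaniel female aged 3, a spayed Rhodesian Ridgeback female aged 4 and a castrated Collie male aged 11 years (replicates 1, 2 and 3). The tissue of the tumours, and whether they were sorted, are not stated in the labels, so disease is compared together with breed, age, neutering and cell preparation. The labels do not say that the 3 controls, or Boxers 1 and 3, were separate dogs, so the p-values cover only the spread between these libraries, which may be technical.

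Class I PI3Ks are pairs of a catalytic and a regulatory subunit that phosphorylate a membrane lipid to PIP3. In T cells the delta catalytic subunit, PIK3CD, bound to a regulatory subunit such as PIK3R1, acts below the T cell receptor and CD28, and the gamma subunit PIK3CG, bound to PIK3R5 or PIK3R6, acts below chemokine receptors. PIP3 recruits AKT to the membrane. AKT phosphorylates FOXO1, which then leaves the nucleus, and it promotes the activity of mTOR complex 1. INPP5D (SHIP1) and INPP4B each remove a phosphate from a different position of these lipids. The files measure messenger RNA, and neither lipids nor protein phosphorylation were measured.

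The libraries held 11710623 to 18488468 reads. Values are normalised read counts, and the reads given for a gene are these unless stated. Changes are differences of log2(value + 1) between group means, each with its standard error (SE). A gene is said to have risen or fallen where limma's p adjusted over all features tested was under 0.05. T cell markers were present in every library, with a summed value of 69864 to 73317 in the controls and 47185 to 83968 in the lymphomas. The sums of all 3 Boxers (47185, 65794 and 57836) and of other-breed lymphomas 2 and 3 (53311 and 66052) lay below every control. Other-breed lymphoma 1 (83968) lay above every control. Of 7 T cell markers tested over the 6 lymphomas, CD3G rose and 0 fell by test, although CD5 (265 to 4320 against 10272 to 10649 reads) and CD6 (179 to 4336 against 6849 to 8636) were below every control in all 6. In the Boxers alone these 2 fell (-2.74 and -2.68, limma adjusted p = 0.0338 and 0.0492). The part of T cell content in the results for the 9 genes was not tested. CD4 itself was not analysed here. Markers of monocytes and macrophages were higher in the lymphomas in 10 of 11 cases (summed value 922 to 21336 against 130 to 201, with FCER1G at 0 in every control), and neutrophil markers in 4 of 4 (104 to 412 against 17.3 to 32.4, ELANE at 0 in every control). Fibroblast markers rose in 6 of 8 cases (77.3 to 11339 against 12.4 to 24.6, LUM and MMP2 at 0 in every control), endothelial markers in 3 of 6 (94.2 to 6244 against 306 to 691) and B cell markers in 0 of 6 (450 to 6191 against 1341 to 1542). In the Boxers alone 7 of 8 fibroblast and 5 of 6 endothelial markers rose, where 18.6% of all features did. For the other breeds alone it was 1 of 8 and 1 of 6, where 13.8% did. Endothelial sums of other-breed lymphomas 1 and 2 (94.2 and 100) lay below every control. Markers of CD8 and NK cells rose in 1 of 5 cases (116 to 1303 against 113 to 213), and of platelets and red cells in 1 of 2 (342 to 467 against 176 to 223). Markers of dividing cells rose in 5 of 5 cases (10628 to 28950 against 1498 to 1744). Over the 6 lymphomas 19.4% of all features rose. In bulk RNA, fewer cells of a type and less RNA per cell cannot be told apart.

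The main comparison asked how CD4+ PTCL differs from normal CD4+ T cells. PIK3R5, FOXO1 and PIK3R1 fell and MTOR rose, and in each of these 4 genes the libraries of the lymphomas and of the controls did not overlap. PIK3CD, PIK3CG, INPP5D, INPP4B and AKT1 did not pass. Of all features tested, 35% passed in either direction, 15.7% fell and 19.4% rose, and the libraries did not overlap in 35.8% (17.2% lower, 18.5% higher), so the count of 4 of 9 lies near the background. The median log2 fold change was -0.68 over the 9 genes and 0.05 over all features. Set by size, PIK3R5 was 3.71-fold, FOXO1 2.82-fold and PIK3R1 2.23-fold lower, and MTOR was 1.42-fold higher. In the Boxers 4 of the 9 genes fell and 0 rose, where 33% of all features passed (14.4% lower, 18.6% higher). In the other breeds 3 fell and 0 rose, where 24.5% passed (10.7% lower, 13.8% higher). Groups without overlap were found for 6 of the 9 genes in the Boxers (4 lower, 2 higher), against 54.1% of all features (25.1% lower, 28.9% higher), and for 4 in the other breeds (3 lower, 1 higher), against 46.9% (22.4% lower, 24.5% higher).

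**Figure D1:**
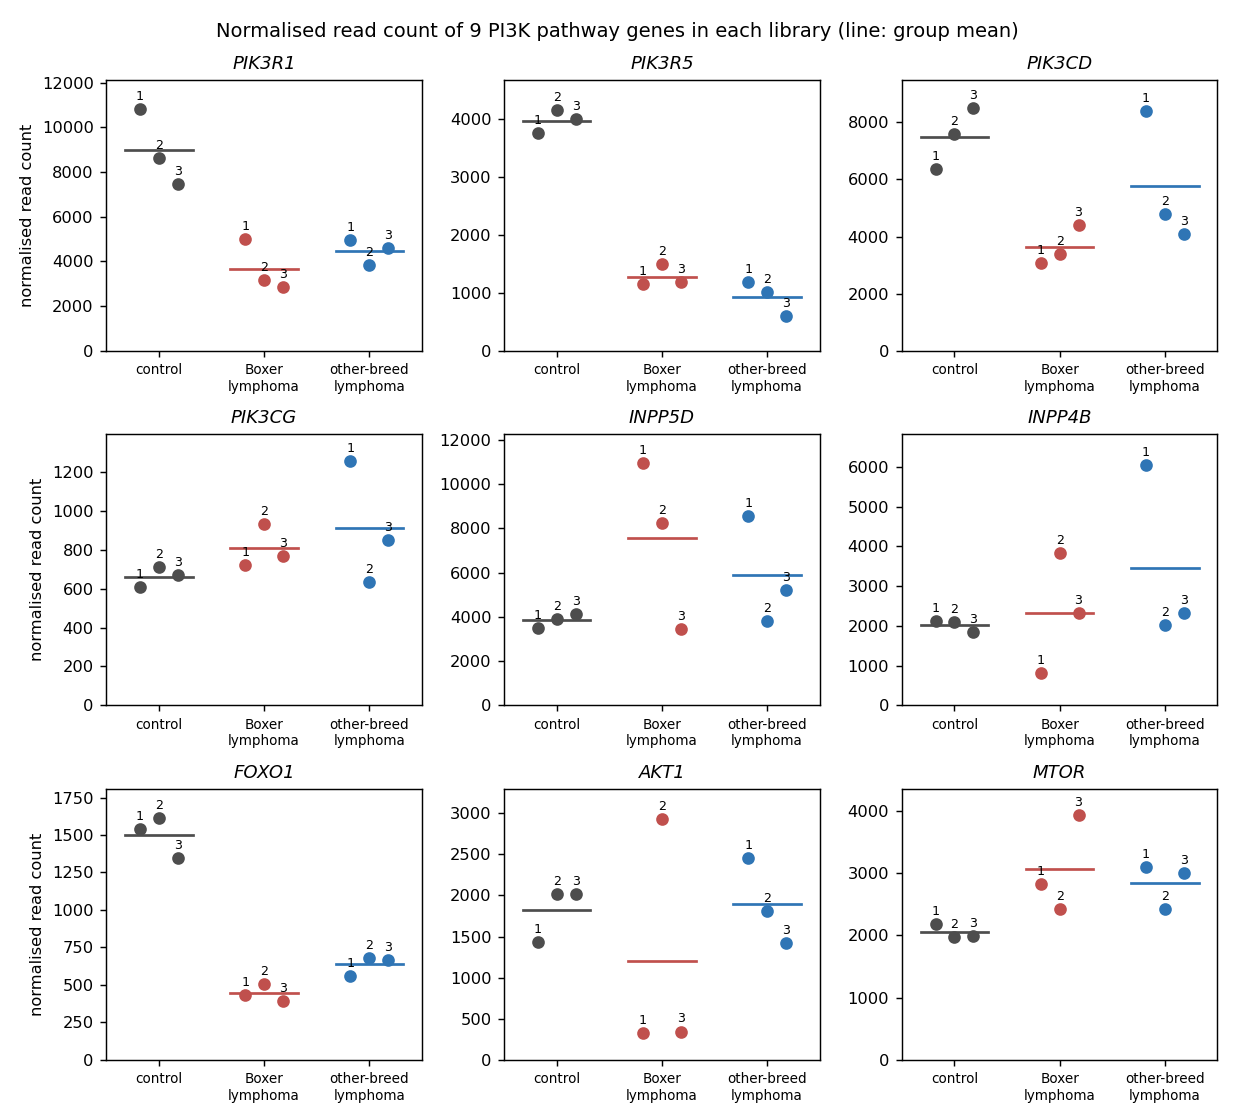
Normalised read count (y axis, from 0) of each of the 9 genes in the 3 controls, 3 Boxer lymphomas and 3 other-breed lymphomas (points, numbered by replicate, with the group mean as a line). PIK3R1, PIK3R5 and FOXO1 are lower in every lymphoma than in any control, and AKT1 splits the Boxers, at 324 and 344 in Boxers 1 and 3 and 2926 in Boxer 2.

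Among the regulatory subunits, PIK3R5 (ENSCAFG00000017387), the p101 partner of the gamma catalytic subunit, had 3760, 4152 and 4000 normalised reads in controls 1 to 3. In the lymphomas it had 1154, 1505 and 1185 in the Boxers and 1183, 1013 and 601 in the other breeds. Every lymphoma was below every control, and the Collie lymphoma, other-breed replicate 3, was lowest. The change was -1.89 ± 0.25 (SE, limma adjusted p = 4.35e-04). It was -1.64 ± 0.25 for the Boxers alone (limma adjusted p = 0.00161) and -2.15 ± 0.25 for the other breeds alone (limma adjusted p = 6.73e-04). These 2 contrasts share the controls. The fall passed in all 20 alternative analyses of the 6 lymphomas, with a change between -1.99 and -1.45. Summed T cell markers were 47185, 65794 and 57836 in the Boxers and 83968, 53311 and 66052 in the other breeds, and their part in the PIK3R5 fall was not tested.

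PIK3R1 (ENSCAFG00000007626) encodes p85 alpha, the main class IA regulatory subunit, which stabilises the catalytic subunit and restrains it until receptors are engaged. It had 10833, 8633 and 7484 reads in the controls. The Boxer lymphomas had 5000, 3169 and 2869 and the other-breed lymphomas 4946, 3819 and 4590. The highest lymphoma, Boxer 1, lay below the lowest control. PIK3R1 changed by -1.16 ± 0.22 in log2 units (limma adjusted p = 0.00304), with -1.31 ± 0.24 in Boxers (adjusted p = 0.00405) and -1.0 ± 0.24 in other breeds (adjusted p = 0.0167). A fit that included age ended the call for the 6 lymphomas (-1.10, adjusted p = 0.0697). That for the other breeds ended without control 1 (-0.86, adjusted p = 0.0679) or control 2 (-1.02, adjusted p = 0.0581).

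Among the catalytic subunits, PIK3CD (ENSCAFG00000019735), the delta isoform enriched in white blood cells, had 6350, 7588 and 8517 reads in the controls. Boxer lymphomas had 3089, 3381 and 4395, all below the controls, while other-breed lymphomas had 8390, 4794 and 4077. The first of these, other-breed lymphoma 1, lay within the control range. PIK3CD fell in Boxers (log2 fold change -1.05 ± 0.27, limma adjusted p = 0.0179), a call that ended without Boxer 1 (adjusted p = 0.051), control 2 (0.0625) or control 3 (0.0688). Over the 6 lymphomas the change was -0.75 ± 0.28 (adjusted p = 0.0611). It was -0.18 with age as a covariate (adjusted p = 0.795), and it passed without other-breed lymphoma 1 (-0.93, adjusted p = 0.0051) and without other-breed lymphomas 1 and 2 (-1.01, adjusted p = 0.00329). In the other breeds it was -0.44 ± 0.27 (adjusted p = 0.268), and without other-breed lymphoma 1 it was -0.75 and passed (adjusted p = 0.0456). The Boxers did not differ from the other breeds by test (-0.61 ± 0.31, 95% interval -1.34 to 0.12, limma adjusted p = 0.881).

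PIK3CG (ENSCAFG00000003977), the gamma isoform, had 607, 710 and 669 reads in the controls. The Boxers had 724, 932 and 769 and the other breeds 1259, 632 and 851. Only other-breed lymphoma 2 fell within the control range, and the other 5 were above it. Its change of 0.35 ± 0.21 did not pass (95% interval -0.12 to 0.81, limma adjusted p = 0.22). Other-breed lymphoma 1, the highest, also had the highest summed B cell markers (6191) and the lowest summed macrophage markers of the lymphomas (922). The part of other cell types in its PIK3CG level was not tested.

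**Figure D2:**
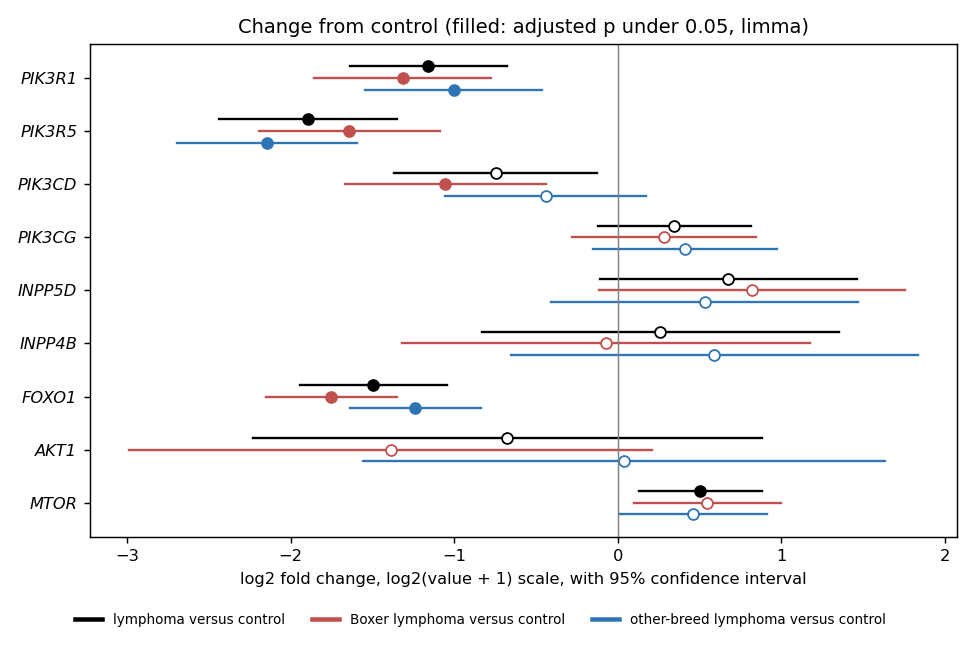
Log2 fold change from control (x axis) with its 95% confidence interval for the 9 genes, in all 6 lymphomas (black), Boxer lymphomas (red) and other-breed lymphomas (blue), which share the 3 controls; filled points passed limma's adjusted p of 0.05. PIK3R1, PIK3R5 and FOXO1 are filled and negative in all 3 contrasts, PIK3CD only in the Boxers, and the widest intervals are those of AKT1.

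Ratios between genes within a library do not depend on how libraries were scaled, and they are given as a description. The log2 ratio of PIK3R5 to PIK3CG was 2.63, 2.55 and 2.58 in the controls. It was 0.67, 0.69 and 0.62 in the Boxers and -0.09, 0.68 and -0.50 in the other breeds. Every lymphoma had a lower ratio than any control, 4.73-fold lower on average, and the 3 Boxers lay within a narrow band (SD 0.04). The corresponding class IA ratio, PIK3R1 to PIK3CD, overlapped between the groups, at -0.19 to 0.77 in the controls and -0.76 to 0.69 in the lymphomas.

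INPP5D (ENSCAFG00000011650) encodes SHIP1, a phosphatase of blood cells that acts on PIP3. It had 3506, 3901 and 4131 reads in the controls, 10978, 8238 and 3442 in the Boxers and 8581, 3815 and 5221 in the other breeds. Boxer 3 lay just under the lowest control, other-breed lymphoma 2 within the control range, and the other 4 lymphomas above it. INPP5D did not pass: the change was 0.68 ± 0.35 (limma adjusted p = 0.159), and in Boxers it was 0.82 ± 0.42 (adjusted p = 0.157), or 1.31 without Boxer 3 (adjusted p = 0.0207). SHIP1 is also made by myeloid cells, whose summed macrophage markers were 12862, 6177 and 12122 in Boxers 1 to 3 and 922, 3480 and 21336 in the other breeds. Boxer 1 had the highest INPP5D and the second highest macrophage sum, and other-breed lymphoma 2 was second lowest of the lymphomas in both. Other-breed lymphoma 1 had the lowest macrophage sum and the second highest INPP5D. Boxer 3, with a macrophage sum of 12122, had the lowest INPP5D. The part of myeloid cells in these levels was not tested. Relative to PIK3CD, INPP5D was higher in every lymphoma than in any control, with a log2 ratio of -0.35 to 1.83 against -1.04 to -0.86.

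INPP4B (ENSCAFG00000003624), which acts on the lipid that SHIP1 produces, had 2125, 2103 and 1850 reads in the controls. It was the second most variable of the 9 genes among tumours, at 802, 3836 and 2319 reads in the Boxers and 6055, 2023 and 2311 in the other breeds. The highest lymphoma had 7.55 times the normalised value of the lowest, Boxer 1, and the controls lay between them. Its change over the lymphomas was 0.26 ± 0.49 (95% interval -0.83 to 1.35, adjusted p = 0.702), and 0.84 with sex as a covariate (adjusted p = 0.211). Boxer 1 combined the lowest INPP4B with the highest INPP5D, and its log2 ratio of the former to the latter was -3.77, against -1.18 to -0.50 in the other 5 lymphomas and -1.16 to -0.72 in the controls. The gene whose levels over the 9 libraries were most like those of INPP4B was SRD5A3, a polyprenol reductase (Pearson r = 0.991 over 9 libraries on the log2 scale, a description), at 220 reads in Boxer 1 and 1110 in other-breed lymphoma 1.

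**Figure D3:**
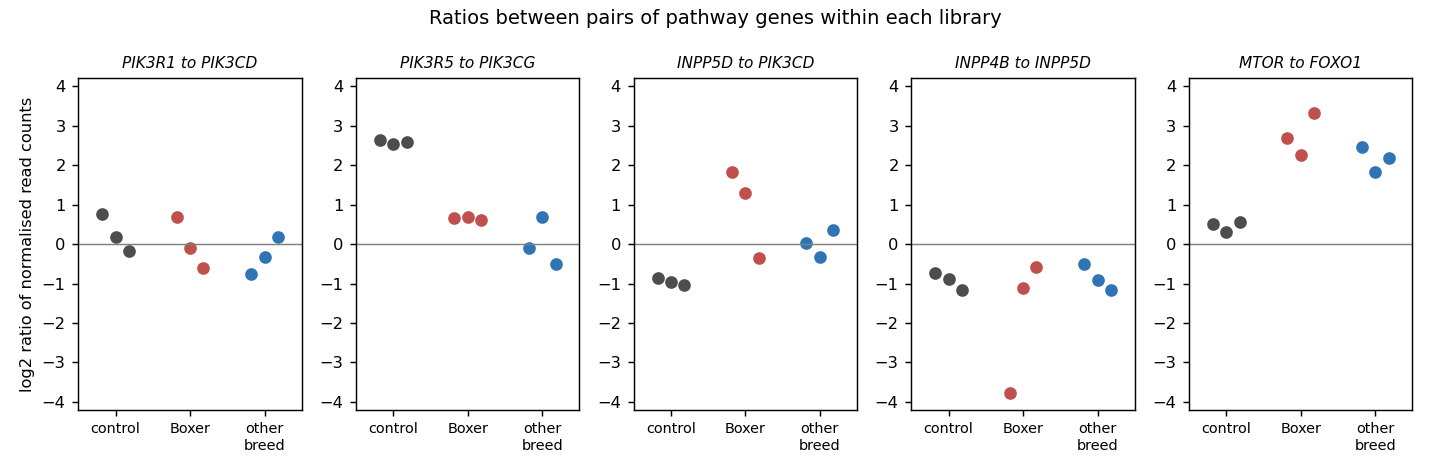
Log2 ratio of normalised read counts (y axis) for 5 pairs of genes in each library (points) of the controls, Boxer lymphomas and other-breed lymphomas. The controls lie apart from all lymphomas for PIK3R5 to PIK3CG, INPP5D to PIK3CD and MTOR to FOXO1, and overlap them for PIK3R1 to PIK3CD and INPP4B to INPP5D. For MTOR to FOXO1 this follows from the separation of each gene by itself.

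AKT1 (ENSCAFG00000018354), a kinase that PIP3 recruits, was the most variable of the 9 genes. It had 1439, 2019 and 2021 reads in the controls and 2458, 1815 and 1424 in the other-breed lymphomas. Boxer lymphomas 1 and 3 had 324 and 344, and Boxer 2 had 2926, the highest of all libraries. The SD among lymphomas on the log2 scale was 1.41, larger than in 83.6% of features tested, against 0.28 among controls and a median of 0.56 over all features in lymphomas. The lowest count of any library before normalisation was 330 reads. The change was -0.68 ± 0.70 over the 6 lymphomas (adjusted p = 0.475), -1.39 ± 0.71 in Boxers (adjusted p = 0.16) and 0.04 ± 0.71 in other breeds (95% interval -1.56 to 1.64, adjusted p = 0.973). Without Boxer 2 the Boxer value was -2.43 and passed (adjusted p = 0.000964). Boxers 1 and 3 were the male Boxers. The male Collie, at 1424, was lowest of the other breeds and close to control 1, a female at 1439. In female dogs alone, or with sex as a covariate, the change over the lymphomas was 0.38 and did not pass (adjusted p = 0.247 and 0.598). All controls were female, so the sex slope came from the lymphomas alone, and the part of sex in the AKT1 levels was not tested. On the recovered reads edgeR gave -0.25 (adjusted p = 0.776) and DESeq2 -0.24 (adjusted p = 0.777). The genes with the most similar levels were LGALS3BP (r = 0.94), the adhesion receptor ADGRE5 (r = 0.916) and the calcium pump ATP2A3 (r = 0.913), each over 9 libraries. ADGRE5 had 555 and 538 reads in Boxers 1 and 3 and 1141 to 1699 in the other 7 libraries.

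The related kinase gene AKT2 did not pass (0.23 ± 0.27, adjusted p = 0.536), with 1211 to 3238 reads in lymphomas and 1343 to 1411 in controls. Of 13 genes tested in the AKT module, 4 fell and 1 rose, where 15.7% of all features fell and 19.4% rose. The fallen genes included the AKT coactivator MTCP1 (-2.31 ± 0.49) and the pseudokinase TRIB1 (-1.54 ± 0.41), whose call ended without control 1 (adjusted p = 0.0725) or control 3 (0.0532). The AKT phosphatase PHLPP1 rose by 1.24 ± 0.43 (adjusted p = 0.0461), a call that ended in 11 of 20 alternatives. Its paralogue PHLPP2 fell (-1.99 ± 0.62, adjusted p = 0.0306), with 22.8 to 201 reads in lymphomas against 407 to 576 in controls and no overlap.

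FOXO1 (ENSCAFG00000005965) keeps naive T cells quiescent and drives genes of homing and survival. It had 1538, 1614 and 1348 reads in the controls, 435, 508 and 395 in the Boxers and 561, 681 and 664 in the other breeds. All 6 lymphomas lay below the controls by a clear margin, and all 3 Boxers lay below all 3 other-breed lymphomas. FOXO1 changed by -1.50 ± 0.20 in log2 units (limma adjusted p = 5.61e-04), and -1.75 ± 0.18 in Boxers (adjusted p = 2.60e-04) and -1.24 ± 0.18 in other breeds (adjusted p = 0.00184). Each of these calls passed in every alternative run, and over the 6 lymphomas the change stayed between -1.61 and -1.37. The step between the tumour groups was -0.51 ± 0.22 (95% interval -1.03 to 0.01, limma adjusted p = 0.881). FOXO3, a related factor, fell by 1.29 ± 0.32 on the log2 scale (adjusted p = 0.0109), and not with age (-0.93, adjusted p = 0.241) or sex (-1.09, adjusted p = 0.0514) as a covariate or without control 1 (-1.10, adjusted p = 0.0628). FOXO4 was at -0.03.

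Many genes of a list of FOXO1 targets were lower as well. The list includes general targets of the FOXO family, not only those known for FOXO1 in T cells. Binding of FOXO1 to them was not measured. Of 21 tested, 13 fell and 0 rose, with a median log2 fold change of -1.18. Over all features 15.7% fell and the median was 0.05. The lymph node egress receptor S1PR1 fell by 3.89 on the log2 scale. SESN1, a stress-induced inhibitor of mTOR complex 1, fell from 3074 ± 1052 to 438 ± 130 reads (-2.80 ± 0.26, adjusted p = 6.94e-05), the homing receptor CCR7 from 19368 ± 1247 to 7866 ± 1704 (-1.32 ± 0.19, adjusted p = 7.35e-04), and the cell cycle restrainer RBL2 from 7422 ± 880 to 3450 ± 630 (-1.12 ± 0.18, adjusted p = 0.00128; SD, n = 3 and n = 6). The survival receptor gene IL7R had 346 to 7671 reads in lymphomas and 7174 to 9116 in controls (-2.24 ± 0.79, adjusted p = 0.0485), and its call ended in 10 of 20 alternatives. TCF7 (-0.33), IRS2 (0.21) and GADD45A (0.14) did not pass. With age as a covariate 7 of the targets were lower, and without any 1 library 10 to 13. KLF2, BCL6 and CTLA4 were not analysed here. Markers of dividing cells, which rose in 5 of 5 cases, moved opposite to these genes, and their part in the fall was not tested.

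**Figure D4:**
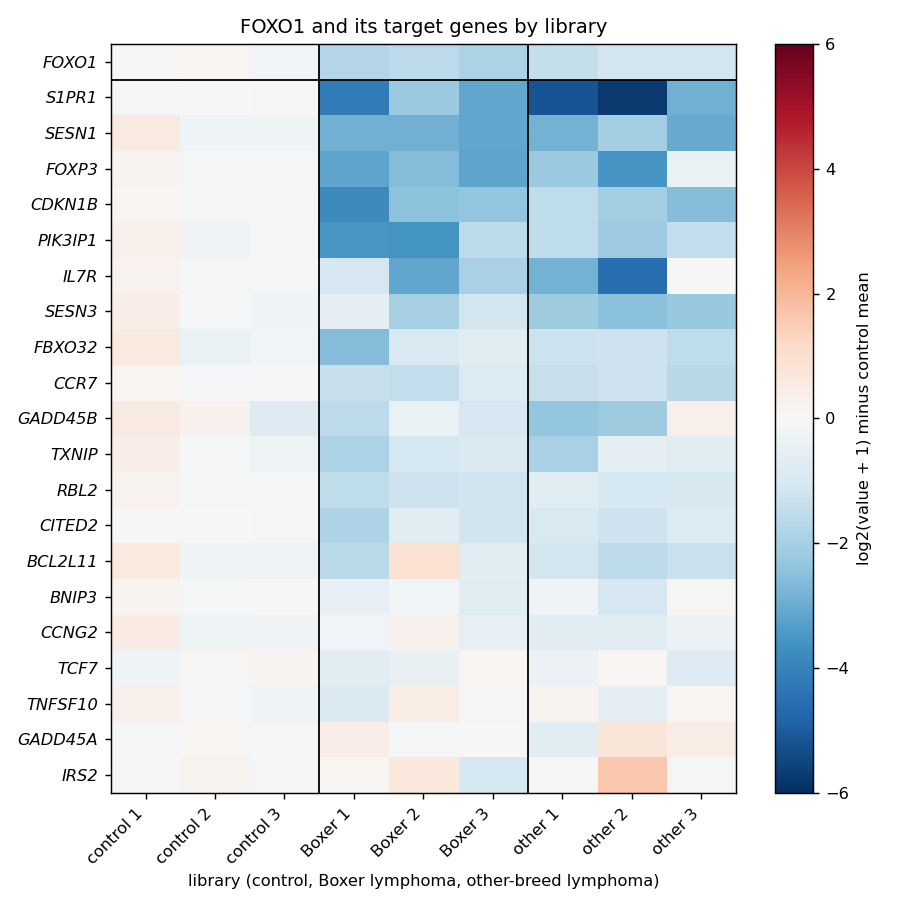
Difference of log2(value + 1) from the control mean (colour, blue for lower) for FOXO1 and listed target genes (rows, sorted by their mean in lymphomas) in each library (columns; controls, Boxer lymphomas and other-breed lymphomas from left to right). FOXO1, SESN1, CCR7 and RBL2 are lower in all 6 lymphomas, while IL7R in other-breed lymphoma 3 is at 7671 reads, within the control range.

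MTOR (ENSCAFG00000016648), the kinase of both mTOR complexes, had 2176, 1981 and 1995 reads in the controls. The Boxers had 2829, 2419 and 3940 and the other breeds 3100, 2426 and 2998. Every lymphoma was above every control, by a small margin in Boxer 2 and other-breed lymphoma 2. MTOR changed by 0.51 ± 0.17 in log2 units (limma adjusted p = 0.0404), the smallest of the 4 that passed. Its call ended in 10 of 20 alternatives: with age (adjusted p = 0.251) or sex (0.172) as a covariate, in females alone (0.135), with no filter on low values (0.0593), and without Boxer 3 (0.0516), control 1 (0.083), control 2 (0.135), control 3 (0.123), other-breed lymphoma 1 (0.0618) or other-breed lymphoma 3 (0.0634). For the Boxers alone the change was 0.55 ± 0.20 (adjusted p = 0.0618), and for the other breeds 0.46 ± 0.20 (adjusted p = 0.123). The log2 ratio of MTOR to FOXO1 was 0.30 to 0.57 in controls and 1.83 to 3.32 in lymphomas, 4.01-fold higher on average. This separation follows from the 2 genes, since every lymphoma was above the controls in MTOR and below them in FOXO1.

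Of 26 other genes tested of the mTOR complexes and their control 2 rose and 7 fell, where 19.4% of all features rose and 15.7% fell. The shared subunit MLST8 rose from 112 ± 41.4 to 298 ± 79.4 reads (1.45 ± 0.32, adjusted p = 0.00706), and the translation repressor EIF4EBP2 rose by 0.70 ± 0.20 (adjusted p = 0.0215, lost in 6 of 20 alternatives). RICTOR, which defines mTOR complex 2, fell from 1994 ± 227 to 1188 ± 258 reads (-0.77 ± 0.20, adjusted p = 0.0141), and did not pass without control 1 (-0.68, adjusted p = 0.0696) or with age as a covariate (-0.32, adjusted p = 0.461). RPTOR, which defines complex 1 (-0.13 ± 0.21), and the inhibitory pair TSC1 (-0.12 ± 0.23) and TSC2 (-0.17 ± 0.21) did not pass. The translation factor EIF4B fell by 1.10 ± 0.22 and the translation inhibitor PDCD4 by 1.20 ± 0.22.

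Of the other PI3K subunits 1 of 8 tested rose and 1 fell, where 19.4% of all features rose and 15.7% fell. The class II enzyme PIK3C2A fell by 1.14 ± 0.23 on the log2 scale (adjusted p = 0.0044), and PIK3R4, a partner of the class III enzyme, rose by 0.36 ± 0.12 (adjusted p = 0.0435), a call lost in 12 of 20 alternatives. The alpha and beta catalytic genes PIK3CA (-0.29 ± 0.19) and PIK3CB (-0.59 ± 0.63) did not pass, nor did PIK3R3 (0.92) or PIK3R6 (-0.38), the alternative regulatory partner of the gamma isoform. PIK3R2 was not analysed here. Of 11 other inositol lipid phosphatases 4 fell and 0 rose, against the same shares of all features. INPP5F fell by 1.21 ± 0.22 and INPP5A by 1.94 ± 0.57, the latter not without control 1, 2 or 3 (adjusted p 0.0764 to 0.0791).

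**Figure D5:**
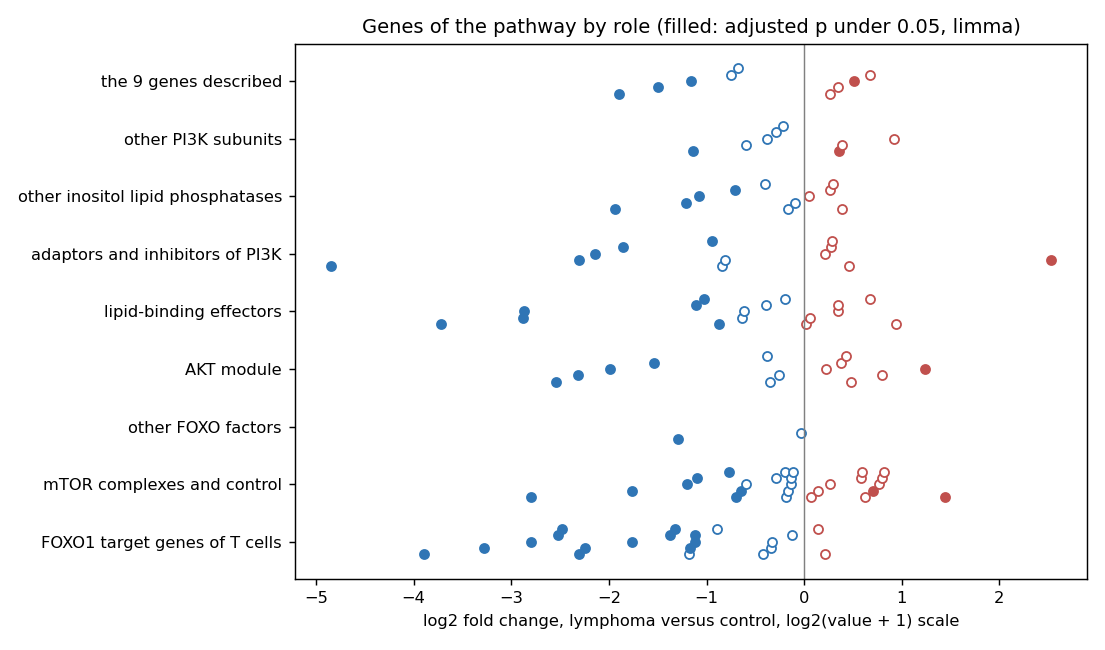
Log2 fold change of lymphoma versus control (x axis) for each tested gene of 9 lists (rows; red for higher, blue for lower, filled where limma's adjusted p was under 0.05, vertical offsets only separate points). Filled blue points are most numerous among the listed FOXO1 targets, where 13 of 21 fell and 0 rose, against 15.7% lower and 19.4% higher of all features.

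Among adaptors and inhibitors of PI3K 5 of 12 tested fell and 1 rose, with a median of -0.83. Over all features 15.7% fell, 19.4% rose and the median was 0.05. PIK3IP1, a transmembrane inhibitor of PI3K, had 5465, 3767 and 4218 reads in controls, 387, 364 and 1511 in Boxers and 1543, 985 and 1577 in other breeds, a log2 fold change of -2.31 ± 0.51 (limma adjusted p = 0.00667). The call ended in the fit with age (adjusted p = 0.114). The adaptor GAB3 was at 14.4 to 45.9 reads in lymphomas and 620 to 936 in controls (-4.85 ± 0.40), and the ubiquitin ligase CBLB, which limits CD28 signalling, fell by 2.14 ± 0.35. GAB1 rose by 2.53 ± 0.88 (adjusted p = 0.0459, lost in 11 of 20 alternatives). CD28 (0.28) and ICOS (-0.84) did not pass. Of 16 genes listed as lipid-binding effectors or Tec family kinases 6 fell and 0 rose, with a median of -0.50, against the same shares of all features. The Tec family kinases TEC (-3.73 ± 0.51) and TXK (-2.88 ± 0.25) fell, as did the RAS regulator RASA3 (-2.87 ± 0.36). VAV1 (-0.19) and DOCK2 (0.34) did not pass.

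The last comparison asked whether Boxer lymphomas differ from those of other breeds. None of the 9 genes passed. By limma 0 of 15112 features passed (0%), 753 had an unadjusted p under 0.05 (4.98%), edgeR called 0 and DESeq2 44 higher and 58 lower. The differences ranged from -1.43 ± 0.82 for AKT1 to 0.50 ± 0.29 for PIK3R5, each Boxer minus other breed. Boxers 1 and 3 and the Collie were male. With sex as a covariate the AKT1 difference was -0.81 (limma adjusted p = 0.996). Leaving out 1 library moved it between -2.47 and -0.88. The part of sex in it was not tested. FOXO1 alone of the 9 separated the tumour groups without overlap, where 10.7% of all features did (4.99% higher, 5.7% lower in Boxers). The intervals of INPP4B (-2.19 to 0.87) and AKT1 (-3.38 to 0.52) were wide, so differences of several-fold in these 2 genes were not detectable with 3 tumours a group, and that of MTOR (-0.47 to 0.64) was narrower.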

How the data were processed

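The study sequenced poly(A)-enriched RNA of 3 sorted control and 6 lymphoma samples. TopHat2, HTSeq and DESeq2 with the build CanFam3.1 are named in the submitters' processing notes, without versions. Per the deposited values, the signal of each gene is the authors' read count divided by 1 factor per library: 100% of values were whole multiples of 1 read (tolerance 0.01 reads), and recomputed median-of-ratios factors had a ratio of 1 to these. limma 3.58.1 (R 4.3.3) was fitted to log2(value + 1) with a mean-variance trend over the features that reached a value of 10 in 3 or more of the fitted libraries (15977, or 15112 among lymphomas), with Benjamini-Hochberg adjustment over all of them. Lymphoma versus control used 2 groups, Boxer or other breed versus control a 3-group fit of the 9 libraries, and Boxer versus other breed the 6 lymphomas. edgeR 4.0.16 on the recovered reads called 3100 higher and 2290 lower in lymphomas, and DESeq2 1.42.0 was a further alternative. The fits were also run on simulated data with the same dispersion for all genes and groups. In the real libraries the median SD on the log2 scale was 0.25 in controls and 0.56 in lymphomas. The simulated data therefore do not show how the fits behave with such unequal spread. Alternatives also changed the pseudocount (0.5 or 5), filter, scaling, covariates, libraries and a block on replicate number. Replicate numbers were not treated as pairs: deviations of same-numbered libraries correlated at -0.136 to 0.104 (9 pairs).

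The 9 genes and all gene lists were chosen with earlier results of these data known. Other genes are named by rule: up to 3 per list and direction with the smallest p among those that passed, and 14 core genes whatever their result, some of which are not reported here; FOXO4, S1PR1, TCF7, IRS2, GADD45A, PIK3R3, PIK3R6, CD28, ICOS, VAV1, DOCK2, PHLPP2, CD3G, CD5 and CD6 were added after their values were seen. SESN1, SESN3, PIK3IP1 and IRS2 stand in the FOXO1 target list and in another. Whether counting used strand was not stated in the labels, and reads of overlapping antisense genes may be included. Levels are not compared between genes, since no transcript lengths were used.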

Additional observations from a re-analysis of the deposited data

Results flagged for a closer look

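Among the 6 lymphomas, 3 genes had 1 library set apart from the remaining 5 by a gap that was a large share of the range on the log2 scale (above Dixon's 95% critical value for 6 samples). Of 41 genes checked, chance flags about 1 in 20. SESN1 was at 696 reads in other-breed lymphoma 2 and 343 to 412 in the others, a gap of 0.74 of the range. AKT2 was at 3238 reads in Boxer 2, which also had the highest AKT1, and 1211 to 1576 in the others (0.732). TSC1 was at 920 reads in other-breed lymphoma 2 and 453 to 570 in the others (0.677). AKT1 was not set apart by this measure, since 2 Boxers were low together.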

How the results depend on the processing

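Of 1251 alternative values for 68 gene results, 1130 kept their direction and side of the threshold, 93 lost the call, 7 gained it and 21 changed sign. PIK3R5 and FOXO1 passed in every alternative against control. Over the 6 lymphomas 3 members were lower (3 to 4 without any 1 library) and 1 was higher (0 to 1). That 1, MTOR, was 0 with age or sex as a covariate, in female dogs only and with no filter. With age as a covariate 1048 features were higher and 885 lower, against 3092 and 2504. Leaving out 1 library gave 1866 to 3291 higher and 1194 to 2605 lower, for Boxers 1699 to 3126 and 1076 to 2509 (2965 and 2304 with all), and for other breeds 1120 to 2278 and 569 to 1854 (2205 and 1707), the fewest each time without control 2. Boxer versus other breed gave 0 to 1 in each direction without 1 library, 44 and 58 by DESeq2, and 2 lower with a pseudocount of 5. The cause of these shifts was not tested, and the fits without a library also had fewer samples. The controls were all 1 year old and female, so covariate slopes came from the lymphomas alone. With the replicate block 2752 features were higher and 2158 lower (for Boxers 2607 and 1921, for other breeds 1809 and 1300, between tumour groups 0 and 0), and of the genes named it ended the calls of PHLPP1 (adjusted p = 0.0812) and PIK3R4 (0.0832).

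Signs changed only in results that had not passed. Over the 6 lymphomas these were AKT1 in female dogs only or with sex as a covariate (0.38), AKT2 (-0.0399), TSC1 (0.32) and TSC2 (0.11) with age, RPTOR (0.0436) and TSC1 (0.0533) with sex or in females only, and INPP4B without other-breed lymphomas 1 and 2 (-0.0051). Leaving out 1 library moved INPP4B between -0.0040 (without other-breed lymphoma 1) and 0.58 over the 6 lymphomas and between -0.57 and 0.56 in Boxers, where DESeq2 gave 0.19 and edgeR 0.16. AKT1 in other breeds moved between -0.17 (without other-breed lymphoma 1; -0.12 without control 1) and 0.23. Between tumour groups MTOR moved between -0.11 (without Boxer 3) and 0.24 and was -0.0128 with sex as a covariate, INPP5D between -0.0595 (without Boxer 1) and 0.78, and PIK3CG between -0.37 and 0.13 (without other-breed lymphoma 1).

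The calls of PIK3R4, PHLPP1, GAB1, IL7R and EIF4EBP2 each ended without control 1, 2 or 3 (highest adjusted p 0.151, 0.1675, 0.127, 0.14 and 0.0911). They also ended without Boxer 1 or 3 or other-breed lymphoma 1 for PIK3R4, Boxer 3 or any other-breed lymphoma for PHLPP1, Boxer 1 or 2 or other-breed lymphoma 2 or 3 for GAB1, and Boxer 2 or 3 or other-breed lymphoma 1 for IL7R. Age as a covariate further ended the calls of INPP5A (adjusted p = 0.21), INPP5F (0.129), MTCP1 (0.126), PDCD4 (0.0891), PIK3C2A (0.0837) and EIF4B (0.0529).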

Other observations

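The genes whose levels were most like those of the other members over the 9 libraries, out of features with a mean of at least 100 reads, are a description in which the gap between controls and lymphomas takes part. For PIK3R1 the closest was STK17B, a kinase of lymphocyte apoptosis (r = 0.983), at 9644 to 12898 reads in controls and 4264 to 7604 in lymphomas. For PIK3R5 the second closest was the histone demethylase gene KDM5C (r = 0.972), at 6224 to 6576 and 2003 to 3025 reads. For FOXO1 the closest was ACTR1B, a dynactin subunit (r = 0.984), and PCMTD2 and ERBIN followed (0.981 and 0.979). For PIK3CG the third was PLCG2, a phospholipase of B and myeloid cells (r = 0.939), with 1882 reads in other-breed lymphoma 1 and 63.9 to 473 in the other 5 lymphomas.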
